A study of Mus musculus with 15 samples.

Results

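The genes described here are 10 matrix metalloproteinase (MMP) genes, *Mmp2*, *Mmp3*, *Mmp9*, *Mmp10*, *Mmp11*, *Mmp12*, *Mmp13*, *Mmp14*, *Mmp19* and *Mmp23*. They were chosen by name from 24134 genes listed by Entrez ID, and all 10 passed the filter on low counts in both count tables. The cells were articular chondrocytes of the ICR mouse strain, taken from the knees of newborn-age animals, freed with collagenase and used at passage 0. In the siRNA table, 3 libraries came from cells transfected with control siRNA (siCtrl) and 3 from cells that received siRNAs against both tankyrase genes, *Tnks* and *Tnks2* (siTnks/2), for a time that the labels do not give. In the drug table, 3 libraries each came from cells kept for 108 h in DMSO, the solvent, or in 10 μM of XAV939 or of IWR-1, small molecules that inhibit tankyrase. Every group was grown in serum, and the study calls the 3 libraries of a group biological replicates.

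MMPs are zinc-dependent endopeptidases, and most are made as latent precursors that other proteases activate outside the cell. Collagenases such as MMP13 cut the triple helix of type II collagen, stromelysins such as MMP3 and MMP10 cut proteoglycans and activate other MMPs, and gelatinases (MMP2, MMP9) digest the unfolded collagen. MMP13 is the main collagenase of osteoarthritic cartilage and is also made by hypertrophic chondrocytes of the growth plate. Tankyrases are poly(ADP-ribose) polymerases that mark target proteins, often for degradation.

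A group of the MMP genes lies side by side on mouse chromosome 9 within chr9:7272514-7699585 (mm10, the same assembly as GRCm38). In map order these are *Mmp13*, *Mmp12*, *Mmp1b*, *Mmp3*, *Mmp1a*, *Mmp10*, *Mmp8*, *Mmp27*, *Mmp20* and *Mmp7*. Promoter sequences were looked up in RefSeq (GRCm38.p6), which gave a window for 7 of the 10 genes and none for *Mmp2*, *Mmp9* and *Mmp19*. The 250 bases before the annotated start are shown for the 4 of the 10 genes that lie in the cluster, and for *Mmp11*, a stromelysin gene outside it, for contrast. Each is written 5′ to 3′ on the strand of the gene. Capitals mark the AP-1 motif TGAGTCA or its reverse complement TGACTCA, the binding motif of FOS and JUN proteins, and the TATA box TATAAA on the strand of the gene.
*Mmp13*, chr9:7272264-7272513, plus strand: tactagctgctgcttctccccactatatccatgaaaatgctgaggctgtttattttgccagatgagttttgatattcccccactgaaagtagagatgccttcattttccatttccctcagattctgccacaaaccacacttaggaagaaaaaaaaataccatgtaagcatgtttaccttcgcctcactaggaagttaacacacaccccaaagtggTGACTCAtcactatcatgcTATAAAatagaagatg
*Mmp3*, chr9:7445572-7445821, plus strand: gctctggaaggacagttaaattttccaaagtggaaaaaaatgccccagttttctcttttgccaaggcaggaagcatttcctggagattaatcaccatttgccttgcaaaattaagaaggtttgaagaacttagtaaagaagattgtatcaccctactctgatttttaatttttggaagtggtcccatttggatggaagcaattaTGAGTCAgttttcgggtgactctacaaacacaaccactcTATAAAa
*Mmp10*, chr9:7502092-7502341, plus strand: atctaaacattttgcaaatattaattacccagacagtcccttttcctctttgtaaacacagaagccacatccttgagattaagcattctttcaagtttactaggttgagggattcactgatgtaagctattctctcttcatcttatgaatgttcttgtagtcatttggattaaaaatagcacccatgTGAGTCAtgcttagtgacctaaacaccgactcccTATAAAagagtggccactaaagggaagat
*Mmp12*, first start, chr9:7344147-7344396, plus strand: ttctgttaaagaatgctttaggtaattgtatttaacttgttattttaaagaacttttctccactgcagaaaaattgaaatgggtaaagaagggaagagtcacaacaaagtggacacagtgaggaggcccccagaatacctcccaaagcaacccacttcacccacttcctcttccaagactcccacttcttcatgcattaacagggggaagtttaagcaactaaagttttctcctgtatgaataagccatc
*Mmp12*, second start, chr9:7347124-7347373, plus strand: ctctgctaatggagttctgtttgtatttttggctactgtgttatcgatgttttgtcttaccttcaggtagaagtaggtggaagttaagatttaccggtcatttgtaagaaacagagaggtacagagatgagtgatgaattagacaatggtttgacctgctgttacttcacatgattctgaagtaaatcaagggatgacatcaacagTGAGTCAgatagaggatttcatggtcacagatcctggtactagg
*Mmp11*, chr10:75932503-75932752, minus strand: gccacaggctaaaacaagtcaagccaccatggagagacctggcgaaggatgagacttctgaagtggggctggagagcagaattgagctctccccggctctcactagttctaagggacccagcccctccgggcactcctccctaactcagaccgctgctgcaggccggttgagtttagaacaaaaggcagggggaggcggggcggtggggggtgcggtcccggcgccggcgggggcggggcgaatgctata
The windows of *Mmp13*, *Mmp3* and *Mmp10* and that of the second *Mmp12* start each held 1 AP-1 motif. Among all 32851 windows of this length, 4.46% held this motif on either strand. The motif began 35 bases before the start of *Mmp13*, 46 before that of *Mmp3*, 63 before that of *Mmp10* and 44 before the second start of *Mmp12*. *Mmp13*, *Mmp3* and *Mmp10* also held a TATA box, which 7.59% of the windows held. It began 16, 7 and 29 bases before their annotated starts. The ETS motif AGGAAG, searched with its reverse complement CTTCCT, was in *Mmp13* (2 matches), *Mmp3*, the first *Mmp12* window and *Mmp14*. Among all windows 29.5% held it. The RUNX motif ACCACA, searched with its reverse complement TGTGGT, was present in *Mmp13*, *Mmp14* and 1 of 2 *Mmp23* windows, against 14.0% of all windows. The TCF/LEF motif ATCAAAG, whose reverse complement is CTTTGAT, was in no window of the 7 genes and in 3.21% of all windows. *Mmp11*, *Mmp14* and *Mmp23* had neither an AP-1 motif nor a TATA box in these windows. These are matches of letters, and no binding was measured.

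Tankyrase transcripts check the knockdown. *Tnks* was at 58.35 to 70.13 CPM (counts scaled to library size by TMM) in siCtrl and 12.69 to 24.02 in siTnks/2, and *Tnks2* fell from 115.1 to 119.6 CPM to between 44.88 and 61.22. The cells carried the markers of their label. The summed level of 9 chondrocyte markers was 80747 to 109692 CPM in siCtrl and 25835 to 35088 CPM in DMSO. Of 12 macrophage and leukocyte markers, 2 (*Tyrobp* and *C1qa*) had at most 3 counts in every DMSO library. *Ptprc*, *Fcer1g*, *Aif1*, *Itgam* and *Adgre1* had at most 5, 5, 6, 9 and 12 counts there. *Cd14* had 774 to 1055 counts, *Cd68* 240 to 323, *Lyz2* 101 to 137, *Mrc1* 35 to 47 and *Csf1r* 30 to 41. The paper lists *Cd14* among its cartilage-signature genes. One library stood apart. In siTnks/2 replicate 2 the endothelial markers *Cdh5*, *Tie1* and *Pecam1* had 64, 35 and 89 counts, and the 5 endothelial markers summed to 7.74 CPM there against at most 0.888 CPM in siCtrl. Library totals were 26857070 to 31254278 counts in the siRNA table and 27438611 to 36615194 in the drug table.

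The control groups differed in the level of the MMP genes. The 10 genes together took 2.23 to 2.39% of all counts with DMSO and 0.0881 to 0.109% with siCtrl. Per length, as CPM for each kilobase of exon (RPKM), *Mmp3* was the highest in DMSO at 5465 ± 185 (SD, n = 3). *Mmp13* followed at 4888 ± 311, and the ranges of these genes did not overlap on this scale. Per coding length the order turned, with *Mmp13* first, and *Mmp13* was also higher in CPM (13066 against 9843). *Mmp2* (136.1 ± 5.11 RPKM) and *Mmp14* (53.95 ± 14.1) came next. *Mmp19* (8.927 ± 0.572) and *Mmp23* (8.637 ± 1.05) overlapped each other. *Mmp9* (3.783 ± 0.7), *Mmp11* (3.054 ± 0.274) and *Mmp10* (2.812 ± 0.0484) overlapped their neighbours, and *Mmp12* (1.366 ± 0.16) was below them. Per coding length *Mmp12* ranked above *Mmp9*, *Mmp11* and *Mmp10*.

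The order was another with siCtrl. *Mmp13* led at 173.7 ± 14.9 RPKM, followed by *Mmp2* at 64.16 ± 5.42, *Mmp14* at 41.69 ± 7.47 and *Mmp3* at 12.29 ± 6.16, with no overlap between neighbours. Below them *Mmp23* (4.08 ± 1.17) overlapped *Mmp11* (2.375 ± 0.485), and *Mmp11* overlapped *Mmp19* (2.198 ± 0.438). *Mmp10* was at 0.855 ± 0.212 RPKM. *Mmp9* (0.0999 ± 0.022) and *Mmp12* (0.07432 ± 0.0776), the lowest, overlapped each other. Per coding length or length of the longest transcript, *Mmp14* ranked above *Mmp2* and *Mmp12* above *Mmp9*.

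Set side by side, mean CPM was 445 times higher in DMSO than in siCtrl for *Mmp3*, 37.9 times for *Mmp9*, 28.1 times for *Mmp13* and 18.4 times for *Mmp12*. The ratio was 4.06 for *Mmp19*, 3.29 for *Mmp10* and 2.12 for both *Mmp2* and *Mmp23*. *Mmp11* and *Mmp14* had a ratio of 1.29. The tables were normalized separately, and these ratios carry no test. Cell type markers differed between the same groups. The synovial and tendon markers summed to 680 to 1347 CPM in DMSO and 152 to 299 CPM in siCtrl. *Prg4*, a cartilage-signature gene of the paper, was most of these sums, at means of 714.3 and 146 CPM. *Pdpn* averaged 192.1 and 63.81 CPM, *Scx* 23.24 and 16.58, *Tnmd* 1.143 and 0.3029, and *Thy1* 4.293 and 5.346. The leukocyte markers summed to 36.4 to 45.7 and 11.2 to 13.4 CPM, with *Cd14* at means of 27.43 and 5.409 CPM. The chondrocyte markers summed to 25835 to 35088 and 80747 to 109692 CPM. The part of cell composition in the ratios was not tested. Table, transfection, solvent and time in culture cannot be told apart here. In bulk RNA, fewer cells that make a transcript and less transcript per cell cannot be told apart either.

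**Figure D1:**
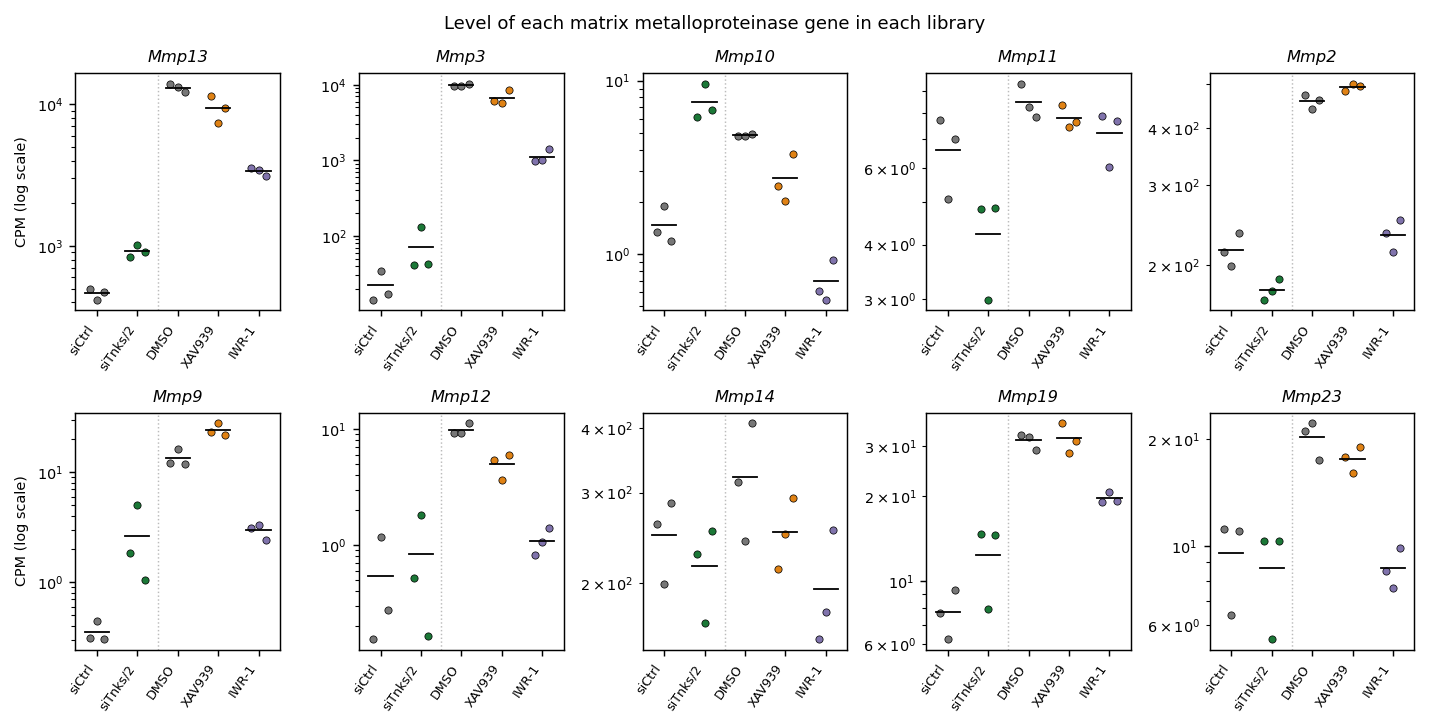
Level of each of the 10 MMP genes in each of the 15 libraries, as TMM-scaled CPM on a log axis whose range differs between panels. Points are libraries, bars are means of 3 libraries, and the dotted line separates the siRNA table from the drug table. With IWR-1 the points lie below those of DMSO for all genes but *Mmp11* and *Mmp14*, and with siTnks/2 those of *Mmp13*, *Mmp3*, *Mmp10* and *Mmp9* lie above siCtrl.

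Knockdown of *Tnks* and *Tnks2* was compared with control siRNA to ask how loss of the enzymes affected the MMP genes. *Mmp9*, *Mmp10* and *Mmp13* rose, *Mmp2* fell, and 6 genes did not pass the test (edgeR quasi-likelihood, adjusted p under 0.05). Of all 13672 genes tested, 10.4% were called higher and 7.61% lower. The median log2 fold change of the 10 genes was 0.64, against 0 for all genes.

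*Mmp13* (Entrez 17386, chr9:7272514-7283333) encodes collagenase-3. It was at 495.9, 419.7 and 477.5 CPM in siCtrl and at 830.1, 1015 and 910.9 CPM in siTnks/2. All 3 knockdown libraries were above all 3 controls. The level rose 1.98-fold (log2 fold change 0.98, SE 0.10, adjusted p = 0.00384). Each replicate number showed the rise, with ratios of 1.67, 2.42 and 1.91.

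Of the stromelysin genes, *Mmp10* passed the test. *Mmp10* (Entrez 17384, chr9:7502342-7510242), which encodes stromelysin-2, had 43, 51 and 39 counts in siCtrl and 178, 268 and 207 in siTnks/2. The groups were far apart, and the rise was 4.94-fold (log2 2.30, SE 0.24, adjusted p = 0.00384). *Mmp3* (Entrez 17392, chr9:7445822-7455975), which encodes stromelysin-1, was at 14.43, 34.85 and 17.14 CPM in siCtrl and at 41.4, 129.6 and 42.95 CPM in siTnks/2. The libraries numbered 2 were the highest of both groups. The difference (log2 1.69, SE 0.54) missed the limit with adjusted p = 0.0702. With the replicate number as a block it was 1.59 and passed (adjusted p = 0.00166), and without siTnks/2 replicate 2 it was 0.94 (adjusted p = 0.0842). DESeq2 called it without a block (1.69, adjusted p = 0.0487), and so did edgeR without both libraries numbered 2 (1.41, adjusted p = 0.000226). *Mmp11* (Entrez 17385, chr10:75923221-75932502), encodes stromelysin-3. Its difference was −0.64 (adjusted p = 0.103), and with the block it was −0.64 again and passed (adjusted p = 0.0107), as it did without both libraries numbered 2 (−0.60, adjusted p = 0.0128).

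The gelatinases moved apart. *Mmp9* (Entrez 17395, chr2:164940326-164955850) had 10, 12 and 10 counts in siCtrl and 53, 143 and 32 in siTnks/2. It was barely detected in the controls, and the library with 143 counts was the one with endothelial transcripts. The rise was 6.51-fold (log2 2.70, SE 0.61, adjusted p = 0.0269). Without that library it was 1.85 on the log2 scale (adjusted p = 0.00989). The call was lost without siTnks/2 replicate 1 or without any 1 of the 3 siCtrl libraries, where the adjusted p reached 0.0992. Leukocyte markers summed to 11.2 to 13.4 CPM in siCtrl and 9.02 to 11.1 CPM in siTnks/2. Of 5 osteoclast markers tested, 2 rose, where 10.4% of all genes were called higher. *Atp6v0d2* rose 6.62-fold (adjusted p = 0.014) from between 1 and 7 counts in siCtrl, and *Acp5* rose 1.32-fold (adjusted p = 0.0488). *Calcr*, *Ocstamp* and *Dcstamp* were not tested, with at most 1 count in any siRNA library. The 8 markers listed summed to 59.7 to 71.2 CPM in siCtrl and 63.5 to 74.8 CPM in siTnks/2. The part of such cells in the *Mmp9* rise was not tested. *Mmp2* (Entrez 17390, chr8:92827290-92853421) went from 213.9, 199.3 and 235.6 CPM to 168.1, 175.1 and 186.3 CPM. The groups did not overlap, but the fall was small (log2 −0.29, SE 0.08, adjusted p = 0.0463). It missed the limit when any 1 of the 6 libraries was left out (adjusted p of 0.054 to 0.142).

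The remaining genes were not called. *Mmp12* (Entrez 17381, chr9:7344397-7360461), the macrophage metalloelastase, had 5, 32 and 9 counts in siCtrl and 15, 51 and 5 in siTnks/2. The groups overlapped, and the interval of the difference ran from −1.47 to 2.68 on the log2 scale. Without siTnks/2 replicate 2 the difference turned to −0.52. *Mmp14* (chr14:54431598-54442456) encodes the membrane-bound MT1-MMP, which activates MMP2. Its difference was −0.20 (adjusted p = 0.467), and −0.21 with the block (adjusted p = 0.0212). *Mmp19* (chr10:128790910-128800827) differed by 0.67 (adjusted p = 0.116), and by 0.65 with the block (adjusted p = 0.0157). It was also called without siTnks/2 replicate 2 (0.90, adjusted p = 0.00988) and without both libraries numbered 2 (0.77, adjusted p = 0.004). *Mmp23* (chr4:155650655-155654539) differed by −0.13 (interval −0.85 to 0.58). With the block, 8 of the 10 genes were called, 5 higher and 3 lower, while calls over all genes went from 2459 to 4727.

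XAV939 was compared with DMSO to ask whether a tankyrase inhibitor changed the same genes. *Mmp9* rose, *Mmp10* and *Mmp12* fell, and 7 genes did not pass the test. Over 13873 genes, 7.57% were called higher and 9.85% lower. The median log2 fold change was −0.28 for the 10 genes and 0.02 for all genes.

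*Mmp9* was at 12.14, 16.24 and 11.79 CPM in DMSO and at 23.26, 27.92 and 22.04 CPM in XAV939. The groups did not overlap. The rise was 1.82-fold (log2 0.86, SE 0.16, adjusted p = 0.00509). *Mmp12* had 304, 315 and 357 counts in DMSO and 199, 97 and 195 in XAV939, a fall to 0.511 of the control level (log2 −0.97, SE 0.21, adjusted p = 0.0106). *Mmp10* had 158, 164 and 157 counts in DMSO and 92, 54 and 122 in XAV939. All treated libraries were lower, and the difference was −0.79 (SE 0.23, adjusted p = 0.0396). This call held only without XAV939 replicate 3 and was lost when any other of the 6 libraries was left out (adjusted p up to 0.12).

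The most abundant MMPs lay just short of the limit. *Mmp13* was at 13838, 13173 and 12185 CPM in DMSO and at 11387, 7330 and 9447 CPM in XAV939. *Mmp3* was at 9610, 9694 and 10225 CPM in DMSO and at 6089, 5719 and 8484 CPM in XAV939. For both genes every XAV939 library was below every DMSO library, with replicate 2 the lowest. The differences were −0.48 for *Mmp13* (adjusted p = 0.0786) and −0.54 for *Mmp3* (adjusted p = 0.078). With the replicate block they were −0.49 (adjusted p = 0.0155) and −0.57 (adjusted p = 0.00455). The block also took *Mmp14* across the limit (−0.34, adjusted p = 0.05 after rounding), so that 6 of the 10 genes were called, and calls over all genes went from 2416 to 4630. DESeq2 called *Mmp3* and *Mmp13* without a block. *Mmp2*, *Mmp11*, *Mmp19* and *Mmp23* had differences of 0.10, −0.12, 0.02 and −0.20, with intervals that included 0.

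IWR-1 had the broadest effect of the comparisons with a control. At the same dose and time, 9 of the 10 genes fell, none rose, and *Mmp11* did not pass the test. Over all genes 20.2% were called lower and 16.2% higher. The median log2 fold change was −1.59, against 0.01 for all genes. The limits of the study were a fold change above 3 with an adjusted p under 1e-05. Applied to edgeR, they called *Mmp3* and *Mmp12*, and 0.750% of all genes were called lower. The study applied them to DESeq2. With DESeq2, *Mmp9* (−2.18, adjusted p = 3.56e-27), *Mmp10* (−2.80, adjusted p = 9.89e-19) and *Mmp13* (−1.96, adjusted p = 5.39e-35) passed them as well. The share of all genes past these limits was not computed with DESeq2, and the 0.750% from edgeR is not its background. XAV939 and IWR-1 share the same 3 DMSO libraries.

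*Mmp3* was at 965.3, 999 and 1406 CPM in IWR-1, against at least 9610 CPM in DMSO. The fall was 8.76-fold (log2 −3.13, SE 0.21, adjusted p = 3.11e-06). *Mmp13* was at 3532, 3447 and 3112 CPM in IWR-1. Its fall was 3.88-fold (log2 −1.96, SE 0.18, adjusted p = 1.77e-05). *Mmp10* was left with 21, 17 and 32 counts (log2 −2.69, SE 0.26, adjusted p = 2.72e-05).

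*Mmp12* and *Mmp9*, proteases that macrophages also make, fell too. *Mmp12* had 28, 33 and 48 counts in IWR-1, an 8.65-fold fall (log2 −3.11, SE 0.24, adjusted p = 7.38e-06). *Mmp9* had 107, 104 and 84 counts, a 4.46-fold fall (log2 −2.16, SE 0.18, adjusted p = 1.11e-05). Of 6 leukocyte markers tested, 4 were called lower with IWR-1, where 20.2% of all genes were. The 12 listed summed to 36.4 to 45.7 CPM in DMSO and 15.5 to 20.9 CPM in IWR-1. *Cd14* was the largest part of these sums, at a mean of 27.43 CPM in DMSO and 8.978 CPM in IWR-1. The 6 markers not tested, among them *Ptprc* and *Itgam*, had at most 9 counts in any DMSO library. The 8 osteoclast markers summed to 81.9 to 106 CPM in DMSO and 79.1 to 101 CPM in IWR-1. The largest part was *Nfatc1*, a cartilage-signature gene of the paper, at a mean of 48.58 CPM in DMSO and 39.8 CPM in IWR-1. Of 6 osteoclast markers tested, 3 differences were above 0 and 3 below, and 1 was called lower. *Calcr* had 18 to 21 counts in DMSO and 0 to 3 in IWR-1. The 9 chondrocyte markers summed to 86680 to 110940 CPM in IWR-1, against at most 35088 CPM in DMSO. The 5 synovial and tendon markers summed to 363 to 987 CPM against 680 to 1347 CPM. Most of these last sums was *Prg4*, at a mean of 507.8 CPM in IWR-1 and 714.3 CPM in DMSO. The part of cell composition in these falls was not tested.

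The other MMP genes fell less. *Mmp23* fell from between 17.44 and 22.15 CPM to between 7.607 and 9.886 CPM (log2 −1.22, SE 0.14, adjusted p = 7.61e-05). *Mmp2* fell from between 440.2 and 474.2 CPM to between 213.6 and 250.8 CPM (log2 −0.98, SE 0.10, adjusted p = 3.41e-05). *Mmp19* fell from between 29.23 and 32.99 CPM to between 19.13 and 20.7 CPM (log2 −0.68, adjusted p = 0.000837). In these genes the groups were apart. Those of *Mmp14* overlapped, at 314.7, 241.2 and 408.7 CPM in DMSO and 156.1, 176.3 and 253.3 CPM in IWR-1 (log2 −0.72, SE 0.22, adjusted p = 0.0258). That call was lost without DMSO replicate 1 or 3, or IWR-1 replicate 1 or 2 (adjusted p up to 0.102). *Mmp11* was at 6.034 to 7.877 CPM against 7.857 to 9.331 CPM (log2 −0.23, interval −0.55 to 0.08). Exons of *Mmp19*, *Mmp11* and *Mmp12* overlap a gene on the other strand by 22.3% (*Tmem198b*), 5.6% (*Chchd10*) and 2.2% (*Mmp1b*), and the strand setting of the counting is not given in the sources used here.

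**Figure D2:**
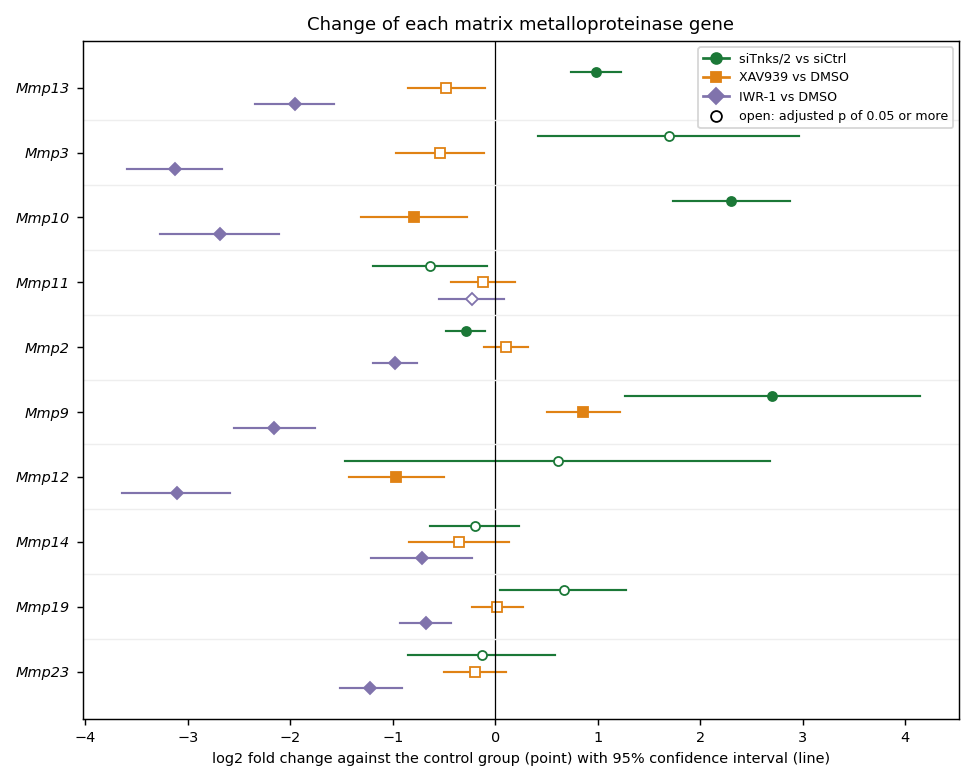
Log2 fold change of the 10 MMP genes against their control group in 3 comparisons, with 95% confidence intervals. Filled markers passed the adjusted p limit of 0.05 and open markers did not. *Mmp9* is to the right of 0 with siTnks/2 and XAV939 and to the left with IWR-1 (2.70, 0.86 and −2.16).

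XAV939 and IWR-1, 1 pair of compounds at the same dose and time, were also compared with each other. Against XAV939, IWR-1 left 8 of the 10 genes lower, where 10.2% of all genes were called lower. The exceptions were *Mmp11* (interval −0.43 to 0.20) and *Mmp14* (−0.37, interval −0.85 to 0.12), which passed with the replicate block (−0.39, adjusted p = 0.0298). *Mmp9* differed most, at 3.11, 3.338 and 2.435 CPM in IWR-1 against at least 22.04 CPM in XAV939 (log2 −3.02, SE 0.18, adjusted p = 3.05e-05). *Mmp3* differed by −2.59, *Mmp12* by −2.15, *Mmp10* by −1.90 and *Mmp13* by −1.48. *Mmp2* (−1.08), *Mmp23* (−1.02) and *Mmp19* (−0.70) followed, genes for which XAV939 and DMSO differed by at most 0.20.

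Drug and knockdown effects were compared in 1 model of all 15 libraries, as the drug difference minus the knockdown difference. For XAV939, 4 genes were lower than the knockdown effect, with 8.07% of all genes called lower. These were *Mmp10* (−3.12, adjusted p = 0.000123), *Mmp3* (−2.25, adjusted p = 0.0179), *Mmp9* (−1.87, adjusted p = 0.0416) and *Mmp13* (−1.48, adjusted p = 0.000724). *Mmp9* rose under both treatments, and its difference lost the call without any 1 of 11 of the 15 libraries, with the value at −1 without siTnks/2 replicate 2. With the replicate block, *Mmp2* (0.38, adjusted p = 0.0215), *Mmp11* (0.51, adjusted p = 0.0325), *Mmp12* (−1.56, adjusted p = 0.00764) and *Mmp19* (−0.64, adjusted p = 0.0104) were called as well.

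For IWR-1, 8 genes were lower than the knockdown effect, with 13.9% of all genes called lower. *Mmp10* (−5.01, SE 0.37), *Mmp9* (−4.88, SE 0.59) and *Mmp3* (−4.83, SE 0.58) differed most. *Mmp12* (−3.74) and *Mmp13* (−2.95, adjusted p = 1.2e-06) came next, then *Mmp19* (−1.35), *Mmp23* (−1.09) and *Mmp2* (−0.69). *Mmp11* (interval −0.17 to 0.96) was not called, and *Mmp14* (−0.53) was called with the block alone (adjusted p = 0.0181). *Mmp23* lost its call without IWR-1 replicate 2, siTnks/2 replicate 1 or siTnks/2 replicate 3 (adjusted p up to 0.0617). Without siTnks/2 replicate 2 the differences were −4.03 for *Mmp9*, −4.08 for *Mmp3* and −2.61 for *Mmp12*, all still called.

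The neighbours of these genes in the chromosome 9 cluster were scarce. *Mmp1b*, a collagenase gene on the minus strand, had 25, 17 and 39 counts in DMSO, 10, 4 and 22 in XAV939 and 5, 2 and 6 in IWR-1, and 0 in all siRNA libraries. It fell with IWR-1 (log2 −2.22, SE 0.49, adjusted p = 0.00494). *Mmp27* had 63, 55 and 80 counts in DMSO and 13, 25 and 33 in IWR-1, and it fell as well (log2 −1.42, SE 0.30, adjusted p = 0.00333). *Mmp1a* is a close copy of *Mmp1b*, and reads that match both may be missing from their counts. *Mmp1a* had 5, 3 and 5 counts in DMSO and 0 in each IWR-1 library. *Mmp8* had 7, 9 and 5 counts in DMSO and 2, 2 and 3 in IWR-1. *Mmp7* had 0 counts in all 15 libraries and *Mmp20* had 1 in a single library. Neither XAV939 difference was called, at −1.03 for *Mmp1b* and −0.41 for *Mmp27*. The *Mmp1b* and *Mmp1a* windows held an AP-1 motif and a TATA box, as did 1 of 2 windows of *Mmp7*, a gene with no counts. The *Mmp20* window held a TATA box alone, and those of *Mmp8* and *Mmp27* held neither.

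**Figure D3:**
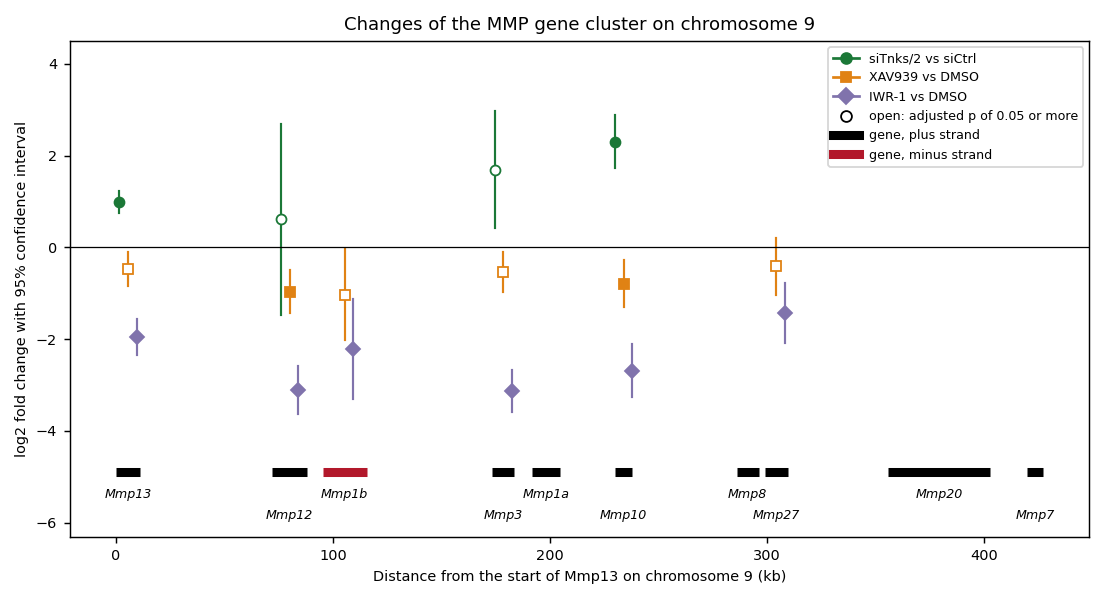
Log2 fold change with 95% confidence interval of the tested genes of the chromosome 9 cluster against distance from the start of *Mmp13* in kb, with gene bodies drawn below. Points of the 3 comparisons are set 4 kb apart at each gene for legibility, and genes without points did not pass the count filter. With IWR-1 all 6 tested genes lie below 0, and with siTnks/2 the 4 tested genes lie above 0.

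Outside the cluster, 5 further MMP genes were tested in the drug table. *Mmp15*, which encodes a membrane-type MMP, had 56, 37 and 51 counts in DMSO and 23, 16 and 27 in IWR-1 and fell (log2 −1.08, adjusted p = 0.00758). *Mmp28* (0.93, adjusted p = 0.00359) and *Mmp16* (0.57, adjusted p = 0.0114) rose with IWR-1. *Mmp28*, or epilysin, also rose with knockdown (0.60, adjusted p = 0.0353). *Mmp17* and *Mmp25* were not called. Of the 13 MMP genes outside the 10, 7 were tested in the drug table, with 2 higher, 3 lower and a median of −1.08 with IWR-1 and 0 called with XAV939. Under edgeR 1 of the 7 had an unadjusted p under 0.05 with XAV939, which was *Mmp1b*, and the 7 differences ranged from −1.03 to 0.40. With knockdown 4 were tested and 1 was called (median −0.28). Of all genes, 16.2% were called higher and 20.2% lower with IWR-1. These shares were 7.57% and 9.85% with XAV939, and 10.4% and 7.61% with knockdown.

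The inhibitors of MMPs did not follow 1 pattern. TIMPs block the active site of the proteases, RECK restrains them at the membrane, and alpha-2-macroglobulin traps them in the fluid. With IWR-1, *Timp3*, which also inhibits aggrecanases, was at 3102, 2456 and 3119 CPM against 723.8, 652 and 884 CPM in DMSO. It rose (log2 1.94, SE 0.19, adjusted p = 2.97e-05), as did *Reck* (0.51, adjusted p = 0.0199). *Timp1* (−1.13, adjusted p = 0.00113) and *Timp2* (−0.55, adjusted p = 0.00292) fell. With XAV939, *Timp2* fell (−0.37, adjusted p = 0.0433) and *Timp3* did not pass (−0.38, adjusted p = 0.188). With knockdown *A2m* rose, from 150.8, 192.3 and 115.3 CPM to 520, 742.1 and 402.3 CPM (log2 1.86, SE 0.27, adjusted p = 0.00826), and the other 4 tested were not called. The median over the 5 tested was −0.21 with IWR-1, −0.38 with XAV939 and −0.08 with knockdown. Of all genes, 16.2% were called higher and 20.2% lower with IWR-1. With XAV939 9.85% were called lower, and with knockdown 10.4% were called higher. Exons of *Timp3* overlap those of *Syn3* on the other strand over 21.3% of their length.

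**Figure D4:**
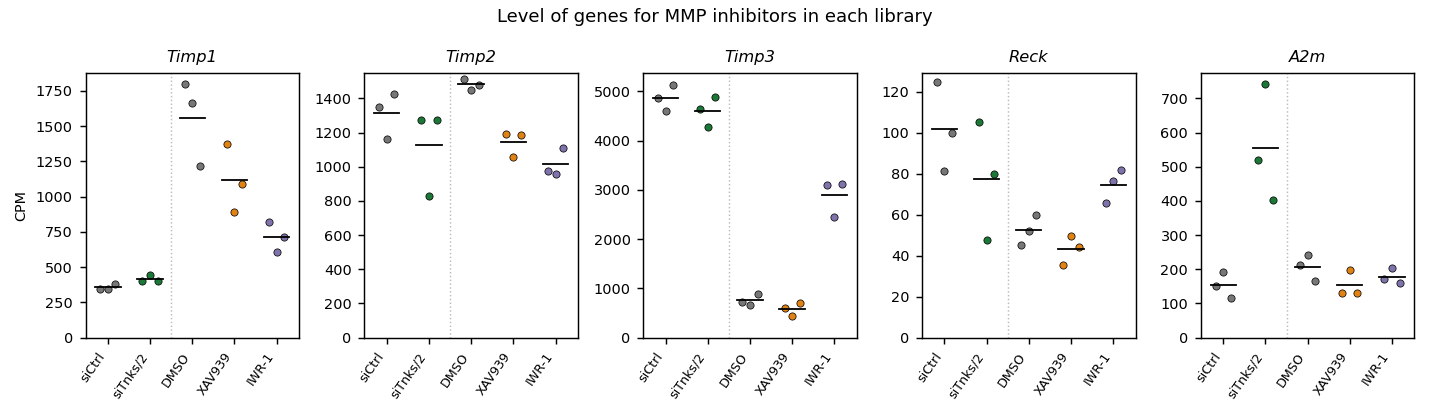
Level of 5 genes for MMP inhibitors in each of the 15 libraries, as TMM-scaled CPM on linear axes that start at 0. Points are libraries and bars are means of 3 libraries. *Timp3* is at 652 to 884 CPM in DMSO and 2456 to 3119 CPM in IWR-1, and *A2m* is higher in siTnks/2 than in siCtrl.

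Genes for the activation of latent MMPs were mostly lower with the drugs. Of the 5 tested, 3 fell with XAV939 (median −0.89), and 3 fell and 1 rose with IWR-1 (median −1.09). With knockdown 2 fell and 1 rose (median −0.50). Of all genes, 9.85% were called lower with XAV939, 20.2% with IWR-1 and 7.61% with knockdown. Called higher were 16.2% with IWR-1 and 10.4% with knockdown. *Plat*, which encodes tissue plasminogen activator, differed by −1.03 with XAV939 and −1.92 with IWR-1. *Plaur*, the urokinase receptor gene, differed by −0.89 and −1.09, and *Plau*, the urokinase gene, by −0.98 and −1.31, all past the limit. *Pcsk6*, which encodes a furin-like convertase, rose with IWR-1 (1.73, adjusted p = 0.000117) and with knockdown (1.54, adjusted p = 0.00532). With knockdown *Plaur* (−1.12, adjusted p = 0.0145) and *Plau* (−0.69, adjusted p = 0.0434) fell.

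Transcription factors known to act on MMP genes include the AP-1 proteins, RUNX2 and HIF-2α, which is encoded by *Epas1*. Of 13 tested, 10 fell with IWR-1 (median −0.89), 6 with XAV939 (median −0.42) and 1 with knockdown, where 1 rose (median −0.13). Of all genes, 20.2% were called lower with IWR-1, 9.85% with XAV939 and 7.61% with knockdown. With knockdown 10.4% were called higher, and the knockdown counts of the list were near these shares. No member of the list rose with either drug, where 16.2% of all genes rose with IWR-1 and 7.57% with XAV939. *Fosl1* was at 142.5, 121.2 and 124.4 CPM in DMSO, at 59.1, 49.73 and 71.38 CPM in XAV939 and at 16.66, 18.55 and 25.51 CPM in IWR-1. It fell with XAV939 (−1.11, adjusted p = 0.0018) and more with IWR-1 (−2.67, adjusted p = 3.38e-06), and the drugs differed by −1.57 (adjusted p = 0.000324). *Jun* fell by 1.46 on the log2 scale with XAV939 (adjusted p = 0.000179) and by 2.08 with IWR-1 (adjusted p = 5.72e-06). *Fosb* fell with XAV939 (−1.80, adjusted p = 0.000783). *Epas1* fell with IWR-1 (−1.22, adjusted p = 1.47e-05), and its difference with XAV939 was 0.32 (adjusted p = 0.0602). With knockdown, where *Mmp13* and *Mmp10* rose, *Fosl1* fell (−0.90, adjusted p = 0.0361) and *Ets1* rose (0.55, adjusted p = 0.0418). *Runx2* was not called in any of these 3 comparisons.

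**Figure D5:**
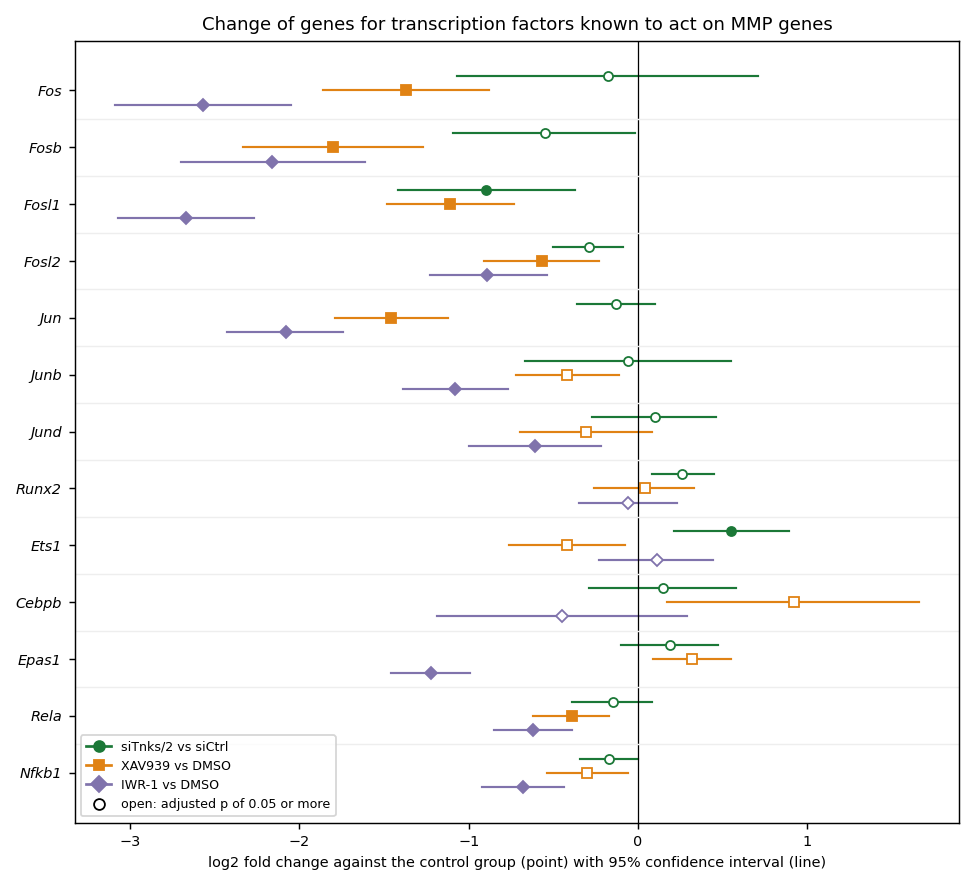
Log2 fold change with 95% confidence interval of 13 genes for transcription factors known to act on MMP genes, in 3 comparisons. Filled markers passed the adjusted p limit of 0.05. With IWR-1, 10 of 13 are filled and to the left of 0, and *Runx2*, *Ets1* and *Cebpb* are open.

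Among receptors that induce or clear MMP13, 3 of 6 fell with IWR-1 (median −0.67), where 20.2% of all genes were called lower. These were *Sdc4* (−0.70, adjusted p = 0.00079), *Fgfr1* (−0.65, adjusted p = 0.00203) and the interleukin-1 receptor gene *Il1r1* (−0.92, adjusted p = 0.00968). With XAV939 1 of 6 fell, *Fgfr1* (−0.43, adjusted p = 0.0373), with a median of −0.20 and 9.85% of all genes called lower. With knockdown 1 of 6 fell, *Il1r1* (−0.63, adjusted p = 0.00632), with a median of 0 and 7.61% of all genes called lower. These 2 counts were near the shares over all genes.

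With IWR-1, several matrix substrates rose where the proteases fell. Of 7 substrate genes, 4 rose and 1 fell (median 1.66). *Col10a1*, the collagen of hypertrophic cartilage, was at 16.44, 14.2 and 16.44 CPM in DMSO and at 135, 117.6 and 143.1 CPM in IWR-1 (log2 3.07, SE 0.14, adjusted p = 6.89e-07). Aggrecan (*Acan*) rose by 2.95 (adjusted p = 1.12e-05) and *Col9a1* by 1.76 (adjusted p = 2.66e-05), while *Col1a1* fell (−1.39, adjusted p = 0.000362). *Col10a1* and *Mmp13*, both known from hypertrophic chondrocytes, rose together with knockdown, where *Col10a1* differed by 1.44 (adjusted p = 0.0117). With IWR-1 they moved in opposite directions. With XAV939, 2 substrate genes rose and 1 fell (median 0.46). With knockdown 2 rose (median 0.62), *Col10a1* and *Acan* (0.96, adjusted p = 0.0155), where *Mmp9*, *Mmp10* and *Mmp13* rose as well. Of all genes, 16.2% were called higher with IWR-1, 7.57% with XAV939 and 10.4% with knockdown. Called lower were 20.2% with IWR-1 and 9.85% with XAV939.

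Across the 9 drug libraries most of the MMP genes varied together. On log2 CPM, *Mmp10* and *Mmp12* had a Pearson r of 0.99, *Mmp3* had 0.98 with each of them and 0.97 with *Mmp13*. *Mmp11* had between 0.38 and 0.69 with the other 9 genes, and *Mmp14* between 0.41 and 0.80. *Mmp9* had 0.75 with *Mmp10* and 0.76 with *Mmp12*. The 9 libraries hold 3 groups with the same controls, so these values describe the group differences as much as the libraries. The genes most like *Mmp3* by this measure were *A4galt* (0.997), *Cxcl1* (0.996) and *Antxr2* (0.996). Those most like *Mmp13* were *Robo3* (0.993), *Stxbp6* (0.992) and *Cxcl5* (0.991). *Cxcl1*, a neutrophil chemokine gene, averaged 1533 CPM in DMSO and 313 in IWR-1, and *Cxcl5*, another, averaged 3618 and 337.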

How the data were processed

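Total RNA of 15 cultures was sequenced as poly(A) libraries with a stranded kit. The submitters' processing notes name Trimmomatic 0.32, TopHat2 2.0.13, HTSeq 0.6.1p1 and the mm10 build. The annotation and the strand setting are not given in the sources used here. The values the authors deposited are raw counts per Entrez ID, and 24051 of 24134 IDs matched a symbol. Genes were placed with GENCODE on GRCm38. The MMP genes and the other lists were chosen with earlier results of these data known.

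Counts were tested in R 4.3.3 with edgeR 4.0.16 (filterByExpr, TMM, quasi-likelihood F test, prior count 2). Each table was fitted in 1 model over its groups, and Benjamini-Hochberg adjustment ran over all genes tested (13672 in the siRNA table, 13873 in the drug table, 14271 in the joint model of drug and knockdown effects). Genes are called at an adjusted p under 0.05. P-values measure the spread among 3 cultures a group. CPM and RPKM are computed values, scaled by TMM, with RPKM over the merged exon length. Reads carry no molecular identifiers.

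All 10 MMP genes are named in every comparison. From each other list, at most 3 genes each way are named by smallest adjusted p, other tested MMP genes by level, and 3 genes by likeness to *Mmp3* and *Mmp13* (pseudocount 0.5). Cluster neighbours, markers and the factors that were not called were named after values were seen. One gene of the list on activation of latent MMPs is not reported here and is left out of its counts.

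Libraries with the same replicate number deviated together after group means were removed. Correlations were 0.469 to 0.545 in 3 siRNA pairs and 0.149 to 0.648 in 9 drug pairs, all above 0.1. Pairs of unlike number had −0.451 to 0.122 in the siRNA table and −0.602 to 0.432 in the drug table. The drug ranges overlap, so the drug numbers do not pair cleanly. DMSO replicate 2 had 0.396 with XAV939 replicate 1 and 0.149 with XAV939 replicate 2. The pairing comes from replicate numbers in the labels, and a fit with this number as a block is given where it changes a call. Alternatives were RLE and upper-quartile factors, other count filters, DESeq2 1.42.0, the block, fits of only the groups compared, the limits of the study, leaving out each library, and, chosen after counts were seen, leaving out both siRNA libraries numbered 2. The limits of the study were applied to edgeR values, while the study applied them to DESeq2. The steps were tested on simulated data.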

Additional observations from a re-analysis of the deposited data

Results flagged for a closer look

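A difference between drug effect and knockdown effect, tested with an interaction term in 1 edgeR model of 15 libraries, was found for these genes. The XAV939 effect was below the knockdown effect for *Mmp3* (−2.25 on the log2 scale, adjusted p = 0.0179), *Mmp9* (−1.87, adjusted p = 0.0416), *Mmp10* (−3.12, adjusted p = 0.000123) and *Mmp13* (−1.48, adjusted p = 0.000724). The IWR-1 effect was below it for *Mmp2* (−0.69, adjusted p = 0.00124), *Mmp3* (−4.83, adjusted p = 5.24e-05), *Mmp9* (−4.88, adjusted p = 5.44e-05), *Mmp10* (−5.01, adjusted p = 1.2e-06), *Mmp12* (−3.74, adjusted p = 0.00555), *Mmp13* (−2.95, adjusted p = 1.2e-06), *Mmp19* (−1.35, adjusted p = 0.00222) and *Mmp23* (−1.09, adjusted p = 0.0244). The drug and siRNA tables differ in treatment and control culture, and the time after transfection is not given. These cannot be told apart. Control levels differed as well, with *Mmp3* at 9843 ± 334 CPM (SD, n = 3) in DMSO and 22.14 ± 11.1 CPM in siCtrl.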

How the results depend on the processing

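The number of MMP genes called was 4 of 10 for knockdown, 3 for XAV939, 9 for IWR-1, 8 for IWR-1 against XAV939, and 4 and 8 for the XAV939 and IWR-1 effects against knockdown. With the replicate block it was 8 for knockdown, 6 for XAV939 and 8 for the XAV939 effect against knockdown, and apart from the changes given in the report the block changed no other call. By the limits of the study, applied to edgeR, it was 0 for knockdown, 0 for XAV939, 2 for IWR-1 and 0 for IWR-1 against XAV939. In the same order, edgeR called 0, 1, 145 and 0 of all genes by these limits, so the counts of 0 say nothing particular about MMP genes. With DESeq2, the tool of the study, more genes passed these limits, among them *Mmp10* with knockdown (2.36, adjusted p = 2.64e-14). *Mmp3*, *Mmp9*, *Mmp10* and *Mmp12* passed them for IWR-1 against XAV939. The share of all genes past these limits was not computed with DESeq2. At an adjusted p under 0.05, DESeq2 gave 5 for XAV939. Without both libraries numbered 2 knockdown gave 7 (Mmp12 not tested).

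When 1 library at a time was left out, the number ran from 2 to 4 for knockdown, from 2 to 4 for XAV939, from 8 to 9 for IWR-1, was 8 in each fit for IWR-1 against XAV939, and ran from 3 to 4 and from 7 to 8 for the effects against knockdown. Differences that changed sign were uncalled ones. For knockdown, *Mmp12* (−0.52) and *Mmp23* (0.10) did so without siTnks/2 replicate 2, with ranges over libraries of −0.52 to 1.66 and −0.35 to 0.10. *Mmp19* did so for XAV939 without XAV939 replicate 1 (−0.08) or DMSO replicate 3 (−0.04), and was at 0 with no filter. For the XAV939 effect against knockdown, *Mmp14* did so without DMSO replicate 3 (0.05, range −0.34 to 0.05) and *Mmp23* without siTnks/2 replicate 1 (0.06), siCtrl replicate 2 (0.14) or siTnks/2 replicate 3 (0.06, range −0.31 to 0.14).

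Calls over all genes differed by more than 1.5 times from 2459 for knockdown (4727 with the block, 3744 without both libraries numbered 2, 608 to 2868 without 1 library, 0 by the limits of the study), from 2416 for XAV939 (4630, 1569 with only the groups compared, 1322 to 2484, 1), from 5049 for IWR-1 (145 by the limits), from 2442 for IWR-1 against XAV939 (4258, 1343 to 2338, 0) and from 1922 for the XAV939 effect against knockdown (4018, 1241 to 2159). Counts by the limits of the study are from edgeR here as well. *Mmp9* in siCtrl (10 to 12 counts) and *Mmp12* (5 to 32) were too few for a close estimate. With coding length in place of merged exon length, *Mmp13* ranked first and *Mmp3* second in DMSO. *Mmp12*, the lowest there per merged exon length, then ranked above *Mmp9*, *Mmp11* and *Mmp10*.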
